A study of Mus musculus with 47 samples.

Results

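The 4 genes described here, Tsc22d3, Nfkbia, Zfp36 and Tnfaip3, encode inhibitors of inflammatory signalling that are known glucocorticoid targets, and each was found by its symbol as 1 row of the 13500 genes in the expression table. All 4 also passed the filter on low values that left 12000 genes for testing. The values come from RNA sequencing of whole tibialis anterior muscle, the muscle at the front of the shin, from 47 female C57BL/6 mice fed ad libitum, with 1 library per mouse. Muscle was taken at ZT0 or ZT12, where ZT is hours after lights on, in 6 conditions, which gives 12 groups of 4 libraries each apart from 1 group of 3.

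WT sham are wild-type mice with sham surgery, aged 9 to 12 weeks. WT ADX are wild-type mice whose adrenal glands were removed, aged 12 to 17 weeks, with only 3 libraries at ZT0. WT ADX+ADR are adrenalectomized mice that received 0.5 mg/kg adrenaline by intraperitoneal injection at ZT12 for 10 days, aged 13 to 14 weeks. WT ADX+DEX are adrenalectomized mice that received 5 mg/kg dexamethasone, a synthetic glucocorticoid, on the same schedule, aged 11 to 14 weeks. RE-RE mice carry the alleles Bmal1(stopFL/stopFL), Syt10-Cre(-/tg) and Hsa-Cre(-/tg). In these mice the clock gene Bmal1 is blocked by a stop cassette everywhere except where Cre removes it, in brain under the Syt10 driver and in skeletal muscle under the Hsa driver. RE-RE sham were 9 to 14 weeks old and RE-RE ADX 8 to 18 weeks old. Per the series text, adrenalectomized mice drank saline with glucose, and muscle of hormone-treated mice was collected after a 2 week wait. That text ties the wait to recovery from surgery, so whether it followed the last injection in every mouse is not clear. None of the 12 groups is labelled as injected with vehicle, so injection and hormone cannot be told apart in comparisons with WT ADX.

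Glucocorticoids bind a nuclear receptor that switches on genes which damp inflammation. Tsc22d3 encodes GILZ, a leucine zipper protein that binds NF-κB and AP-1 subunits. Nfkbia encodes IκBα, which holds NF-κB in the cytoplasm and is itself an NF-κB target, so that its messenger RNA rises as a brake. Tnfaip3 encodes A20, a ubiquitin-editing enzyme that cuts the signal upstream of NF-κB and is also an NF-κB target. Zfp36 encodes tristetraprolin, which binds AU-rich elements in cytokine messenger RNAs and speeds their decay. In muscle, glucocorticoids are also known for driving protein breakdown, and their blood level in mice peaks around the start of the dark phase.

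The sequence just before the start sites is shown for Nfkbia and Tnfaip3, the members known as NF-κB targets, because these were the genes whose messenger RNAs differed between adrenaline and dexamethasone in opposite directions. Both are from RefSeq on GRCm38.p6, read 5′ to 3′ on the minus strand, and cover the 250 bases before the start site. Capitals mark matches to the NF-κB consensus on either strand.
Nfkbia, chr12:55492648-55492897: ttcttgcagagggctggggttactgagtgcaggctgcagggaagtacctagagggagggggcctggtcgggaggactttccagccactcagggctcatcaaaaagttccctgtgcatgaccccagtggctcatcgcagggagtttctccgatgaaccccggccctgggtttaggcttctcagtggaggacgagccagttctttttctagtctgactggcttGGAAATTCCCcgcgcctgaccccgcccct
Tnfaip3, chr10:19015411-19015660: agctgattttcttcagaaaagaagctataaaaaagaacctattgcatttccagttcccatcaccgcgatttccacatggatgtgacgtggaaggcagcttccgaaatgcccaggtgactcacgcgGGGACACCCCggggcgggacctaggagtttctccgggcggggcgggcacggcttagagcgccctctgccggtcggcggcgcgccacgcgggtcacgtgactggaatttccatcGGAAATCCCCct
The match in Nfkbia lies at -29 to -20 from the start, and the 2 matches in Tnfaip3 lie at -125 to -116 and -12 to -3. RefSeq gave 7 start sites for the 4 genes, 3 for Tsc22d3, 2 for Tnfaip3 and 1 each for the others, and the 5 other windows, among them the second Tnfaip3 start, held no match. Of 32851 promoter windows of this length, 3.9% held the consensus. The glucocorticoid response element, searched as GNACA, any 3 bases and TGTNC, was in none of the 7 windows and in 0.387% of all windows, and the cAMP response element, searched as TGACGTCA, was in none of the 7 and in 1.55% of all. These letters are a description of the windows only, and nothing follows from them about which factor binds.

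The depth of each library is unknown, since the table gives log2(FPKM + 0.01) and no counts, so no counting interval is given. The 12 skeletal muscle markers were present in every library, between 80.4 and 25600 FPKM. In 40 libraries, between 25 and 103 low values were exactly equal to a value in another library of the same group, while 7 libraries shared at most 1, namely WT sham ZT0 replicate 4, WT sham ZT12 replicate 8, RE-RE sham ZT0 replicate 2, RE-RE sham ZT12 replicate 6, RE-RE ADX ZT0 replicates 1 and 4 and RE-RE ADX ZT12 replicate 5. Libraries of a group may therefore not be fully independent, and p-values may be too small. Nnt, a mitochondrial gene, had no expression listed for the 7 WT ADX libraries and 2 of the 8 WT sham ones, and read 5.93 to 27.1 FPKM in the 32 libraries of the other conditions, so that surgery and this difference cannot be told apart in comparisons with WT ADX. The glucocorticoid receptor gene Nr3c1 was present in all 47 libraries, at 10.9 to 26.9 FPKM, and was lowest in WT ADX+DEX, with a median of 13.3 FPKM. In bulk muscle, fewer cells of a type and less RNA per cell cannot be told apart.

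Nfkbia showed the largest range of group means among the members that no library listed at 0. It was higher at ZT12 than at ZT0 in wild-type muscle with intact adrenals, showed no called time difference in WT ADX, and had a larger one under dexamethasone. In WT sham it read 11.8, 12.0, 9.16 and 9.45 FPKM at ZT0 and 33.6, 16.0, 23.9 and 26.3 FPKM at ZT12. The 2 times did not overlap, and replicate 6 was the lowest of the ZT12 libraries. The log2 difference was 1.20 ± 0.17 (SE, adjusted p = 1.87e-06), a 2.29-fold rise, where 23.5% of all tested genes were called in either direction and 14% as higher. It was 1.10 ± 0.16 without the 7 libraries that stand apart.

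In WT ADX the order of the 2 times turned, without a called difference. Nfkbia in WT ADX read 13.9, 15.3 and 13.9 FPKM at ZT0 and 11.8, 9.56, 10.0 and 9.72 FPKM at ZT12. All 4 evening libraries were below the 3 morning ones, but the log2 difference of -0.49 ± 0.18 did not pass (adjusted p = 0.0757), where 11% of genes were called. The change in the time difference itself was tested: WT ADX minus WT sham was -1.68 ± 0.25 in log2 units (adjusted p = 5.65e-05), in a contrast where 1.54% of all genes were called, and the value was -1.59 ± 0.23 without the 7 libraries that stand apart. At ZT12, adrenalectomized wild-type muscle had 2.36-fold less Nfkbia than sham muscle (log2 difference -1.24 ± 0.17, adjusted p = 1.24e-06), with no overlap and with 26.9% of genes called. At ZT0 the difference of 0.45 ± 0.18 in the other direction did not pass (adjusted p = 0.0567), where 32% were called. It passed without WT sham replicate 2 (0.51, adjusted p = 0.0449) and with only the 2 groups in the model (adjusted p = 0.0392).

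At ZT12, dexamethasone gave the highest Nfkbia level of the 12 groups. Its ZT0 group had the highest mean of that time, 16.7 FPKM, but overlapped the next lower group. Only 4 groups, all at ZT12, had higher means. In WT ADX+DEX, Nfkbia read 14.6, 16.2, 17.2 and 18.7 FPKM at ZT0 and 64.8, 60.1, 65.2 and 59.6 FPKM at ZT12. The 4 evening libraries were tight, at 62.4 ± 3.0 FPKM (SD, n = 4), and no library of another group reached them: the next highest of all 47 was 33.6 FPKM. The time difference was 1.91 ± 0.17 on the log2 scale, a 3.76-fold rise (adjusted p = 3.12e-11), where 27.8% of genes were called in either direction and 14.7% as higher. It exceeded that of WT ADX by 2.40 ± 0.25 (adjusted p = 6.47e-09, 17.2% of genes called). Dexamethasone minus WT ADX was 2.61 ± 0.17 at ZT12 (adjusted p = 8.56e-16, 66.3% called), and at ZT0 it was 0.21 ± 0.18 and did not pass (adjusted p = 0.308, 68.9% called). Against WT sham, dexamethasone was higher by 1.37 ± 0.17 at ZT12 (adjusted p = 1.82e-08, 52.7% called). At ZT0 it was higher than WT sham by 0.66 ± 0.17 (adjusted p = 0.000979, 62.6% called). The time difference under dexamethasone also exceeded that of WT sham by 0.71 ± 0.24 (adjusted p = 0.0309, 18.9% called). That call was lost in a model of these groups alone (adjusted p = 0.0562) and when any 1 of 6 libraries was left out. These were WT sham replicates 1, 2 and 6 and WT ADX+DEX replicates 1, 5 and 7, with values from 0.52 to 0.70.

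Nfkbia was lower under adrenaline than under dexamethasone at both times. In WT ADX+ADR it read 8.51, 8.43, 7.83 and 11.6 FPKM at ZT0 and 13.9, 13.9, 14.3 and 13.7 FPKM at ZT12. Evening libraries were all higher, by 0.63 ± 0.17 on the log2 scale (adjusted p = 0.0088), where 12.7% of genes were called. The time difference exceeded that of WT ADX by 1.12 ± 0.25 (adjusted p = 0.00547, 4.62% called) and was smaller than that under dexamethasone by 1.28 ± 0.24 (adjusted p = 0.000254, 13.6% called). Its difference from the time effect in WT sham, -0.56 ± 0.24, did not pass (adjusted p = 0.14, 7.93% called) unless WT sham ZT12 replicate 6 was left out (-0.76, adjusted p = 0.0318). Against WT ADX at ZT0, Nfkbia was lower by -0.67 ± 0.18 (adjusted p = 0.00227, 51.1% called). At ZT12 it was higher by 0.45 ± 0.17 (adjusted p = 0.0252, 53% called), a call that was lost without WT ADX replicate 5 or 7 or WT ADX+ADR replicate 7. Set directly against each other, dexamethasone gave 4.47-fold more Nfkbia than adrenaline at ZT12 (log2 difference 2.16 ± 0.17, adjusted p = 5.45e-13) and 1.85-fold more at ZT0 (0.88 ± 0.17, adjusted p = 3.75e-05), in contrasts where 42.6% and 48.6% of genes were called. Groups did not overlap at either time.

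In RE-RE mice with adrenals, Nfkbia was again higher in the evening. RE-RE sham read 18.2, 10.1, 15.0 and 13.5 FPKM at ZT0 and 22.9, 31.9, 25.5 and 28.3 FPKM at ZT12. The log2 difference was 0.96 ± 0.17 (adjusted p = 0.00011, 10.8% of genes called), and it was 0.72 ± 0.16 without the libraries that stand apart (adjusted p = 0.00594). It differed from that of WT sham by -0.24, with a 95% interval from -0.72 to 0.24, in a contrast where 0.342% of genes were called. At ZT0, RE-RE sham was above WT sham by 0.40 ± 0.17 (adjusted p = 0.0813, 24.1% called), which passed without RE-RE sham replicate 2 (0.55) and without the libraries that stand apart (0.50, adjusted p = 0.0459). RE-RE ADX read 15.9, 18.4, 19.1 and 10.6 FPKM at ZT0 and 19.3, 18.7, 16.3 and 20.3 FPKM at ZT12. These times overlapped and the difference of 0.25 ± 0.17 did not pass (adjusted p = 0.608), where 0.775% of genes were called. The change of the time difference with surgery was -0.70 ± 0.24 in RE-RE mice and did not pass (adjusted p = 0.373), in a contrast where 0.0667% of all genes were called. RE-RE ADX minus RE-RE sham at ZT12 was -0.53 ± 0.17 (adjusted p = 0.0548, 5.32% called), and it passed with equal library medians (-0.56, adjusted p = 0.0383), on log2(FPKM + 1) (-0.51, adjusted p = 0.0452), with only the 2 groups in the model (adjusted p = 0.0481) and with age as a covariate (-0.64, adjusted p = 0.0436).

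**Figure D1:**
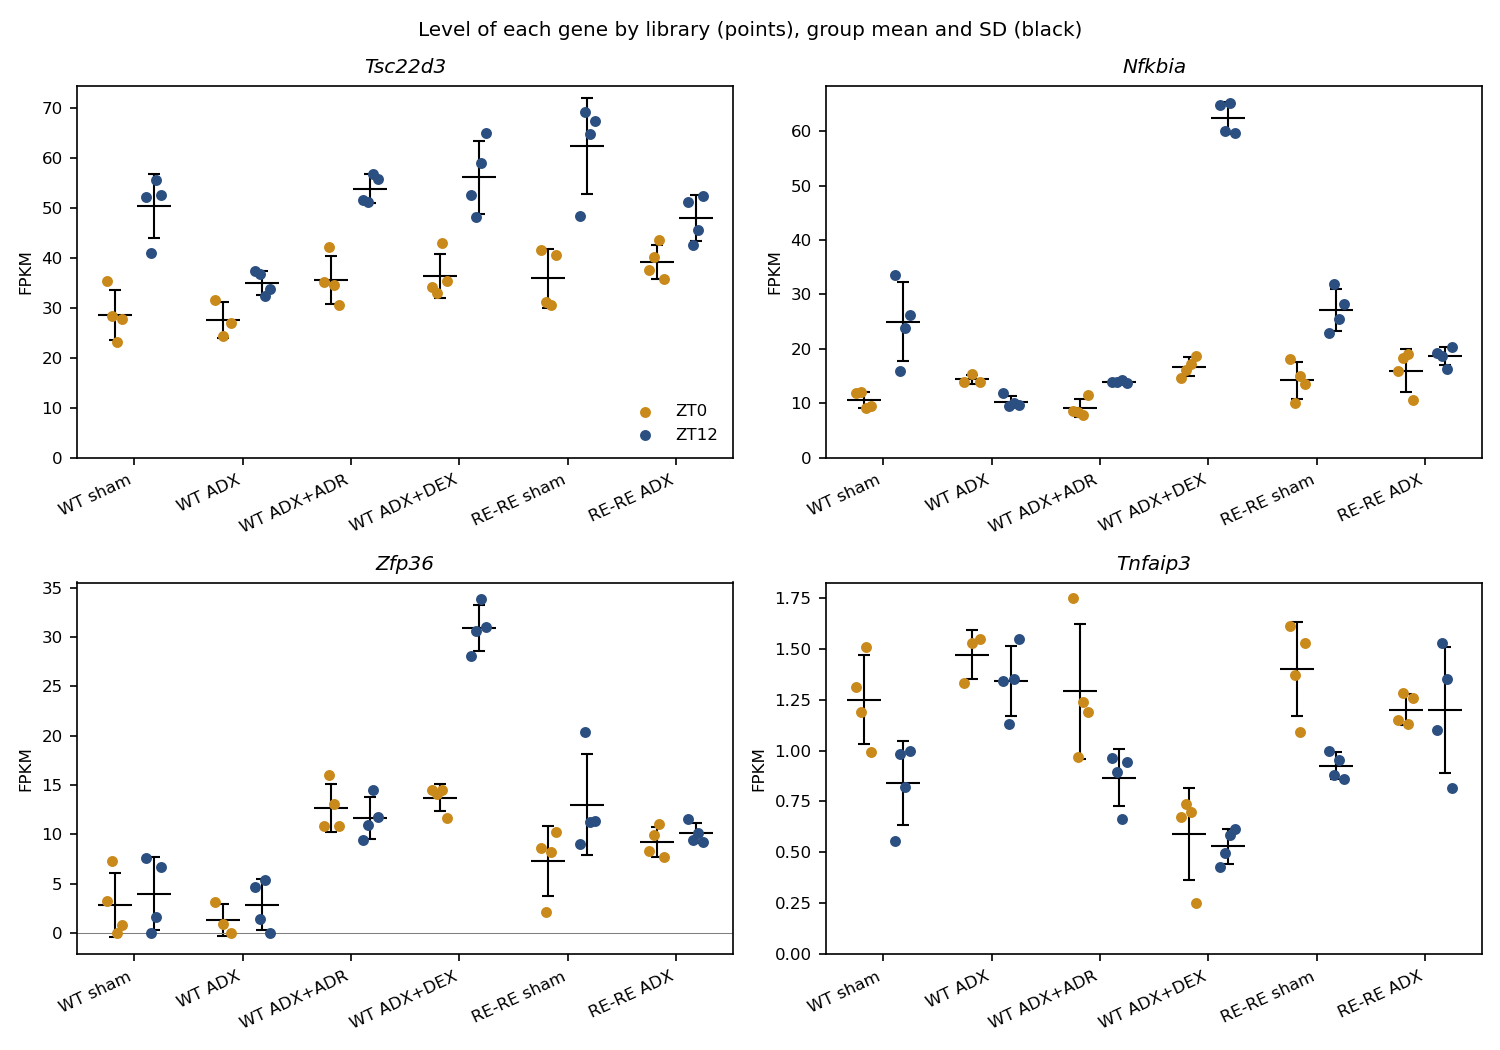
Level in FPKM of the 4 genes in each library (points, ZT0 in ochre and ZT12 in blue) by condition, with the group mean and SD in black. Nfkbia and Zfp36 are highest in the WT ADX+DEX ZT12 group, at 62.4 and 30.9 FPKM on average, Tsc22d3 has its higher values at ZT12, and Tnfaip3 is lowest in WT ADX+DEX.

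Tsc22d3, the GILZ gene, was the most evenly expressed member, with every library between 23.2 and 69.2 FPKM. It was higher in the evening in all 4 conditions with either intact adrenals or a hormone injection, by 1.52 to 1.76-fold. In WT sham, Tsc22d3 read 35.3, 28.4, 23.2 and 27.7 FPKM at ZT0 and 52.1, 40.9, 55.5 and 52.6 FPKM at ZT12. The times did not overlap, and the log2 difference was 0.82 ± 0.13 (adjusted p = 8.39e-06), with 23.5% of genes called. In RE-RE sham, Tsc22d3 rose by 0.80 ± 0.13 (adjusted p = 2.34e-05, 10.8% called), from 41.5, 31.1, 30.5 and 40.5 FPKM to 48.3, 69.2, 64.7 and 67.3 FPKM, the highest group mean of this gene at 62.4 ± 9.55 FPKM (SD, n = 4).

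After adrenalectomy alone the Tsc22d3 time difference did not pass in either genotype. WT ADX read 31.5, 24.3 and 27.0 FPKM at ZT0 and 37.4, 36.7, 32.3 and 33.7 FPKM at ZT12. The evening libraries were still all higher, by 0.35 ± 0.14 (adjusted p = 0.0891, 95% interval 0.07 to 0.62), and this passed once WT ADX ZT0 replicate 1 was left out. RE-RE ADX read 37.5, 40.1, 43.5 and 35.8 FPKM at ZT0 and 51.1, 42.5, 45.6 and 52.3 FPKM at ZT12, which overlapped, with a log2 difference of 0.29 ± 0.13 (adjusted p = 0.344). The change of the time difference with surgery was -0.47 ± 0.18 in wild type (adjusted p = 0.216) and -0.51 ± 0.18 in RE-RE mice (adjusted p = 0.39), so neither passed. At ZT12, WT ADX muscle had 1.43-fold less Tsc22d3 than WT sham (-0.51 ± 0.13, adjusted p = 0.00225, 26.9% of genes called). At ZT0 the difference was -0.05 ± 0.14, with a 95% interval from -0.32 to 0.23.

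Tsc22d3 was the member for which dexamethasone and adrenaline gave nearly equal values. WT ADX+ADR read 35.1, 42.1, 34.6 and 30.6 FPKM at ZT0 and 51.5, 51.1, 56.7 and 55.8 FPKM at ZT12, and WT ADX+DEX read 34.2, 33.0, 42.9 and 35.4 FPKM at ZT0 and 52.5, 48.1, 58.9 and 64.9 FPKM at ZT12. The 2 hormone groups overlapped at both times, with log2 differences of 0.03 (95% interval -0.22 to 0.29) at ZT0 and 0.05 (95% interval -0.20 to 0.31) at ZT12. Each was above WT ADX at ZT12, by 0.67 ± 0.13 for dexamethasone (adjusted p = 1.5e-05) and 0.62 ± 0.13 for adrenaline (adjusted p = 9.44e-05), where 66.3% and 53% of genes were called. At ZT0 the differences from WT ADX were 0.40 ± 0.14 (adjusted p = 0.00953, 68.9% called) and 0.37 ± 0.14 (adjusted p = 0.0239, 51.1% called). The ZT0 calls were lost without WT ADX replicate 2, and the adrenaline one also without WT ADX replicate 3 or WT ADX+ADR replicate 2 and in a model of the 2 groups alone (adjusted p = 0.0546). These 2 comparisons share the WT ADX libraries. The time differences were 0.60 ± 0.13 under adrenaline (adjusted p = 0.000818) and 0.62 ± 0.13 under dexamethasone (adjusted p = 0.000194), where 12.7% and 27.8% of genes were called. Tested against the time difference of WT ADX, neither passed. The changes were 0.25 ± 0.18 for adrenaline (adjusted p = 0.492, 4.62% called) and 0.27 ± 0.18 for dexamethasone (adjusted p = 0.329, 17.2% called). Dexamethasone minus WT sham was 0.35 ± 0.13 at ZT0 (adjusted p = 0.0146, 62.6% called), a call lost without WT sham or WT ADX+DEX replicate 3 and with age as a covariate, and 0.16 at ZT12 (95% interval -0.10 to 0.41).

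Between genotypes, Tsc22d3 means were higher in RE-RE sham than in WT sham, but neither difference passed. They were 0.33 ± 0.13 at ZT0 (adjusted p = 0.0536, 24.1% called) and 0.31 ± 0.13 at ZT12 (adjusted p = 0.0803, 19.3% called). The first passed without WT sham replicate 1 or RE-RE sham replicate 2 or 3, with values from 0.39 to 0.43, and the second without RE-RE sham replicate 5 (0.42). RE-RE ADX minus RE-RE sham at ZT12 was -0.37 ± 0.13 (adjusted p = 0.0724, 5.32% called), and it passed without the same library (-0.49) and with equal library medians (-0.40, adjusted p = 0.0498).

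**Figure D2:**
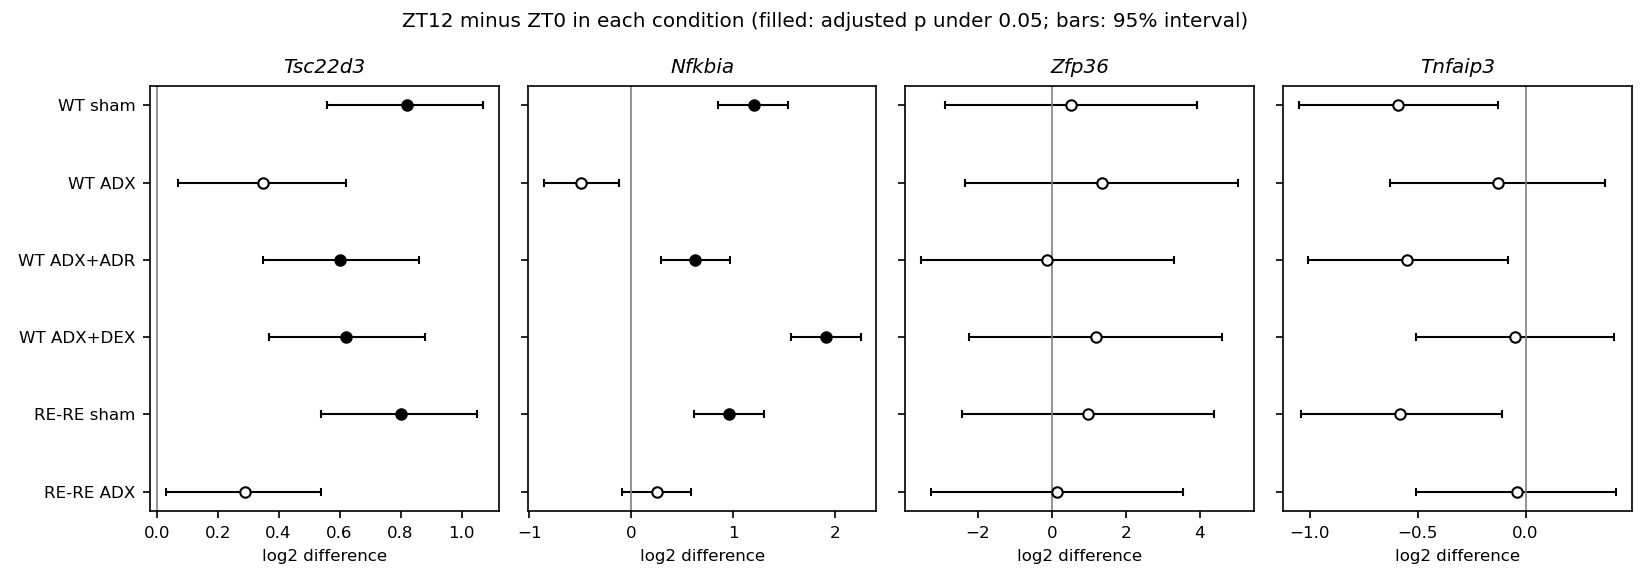
Log2 difference of ZT12 minus ZT0 (x axis) of each gene in each condition (rows), with its 95% interval. Filled points passed an adjusted p of 0.05: Tsc22d3 and Nfkbia passed in WT sham, WT ADX+ADR, WT ADX+DEX and RE-RE sham, and neither Zfp36 nor Tnfaip3 passed in any condition.

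Tnfaip3, the A20 gene, was the only member of the 4 that was lower under dexamethasone than in each of the 3 wild-type conditions at both times. It was expressed at a low level, between 0.251 and 1.75 FPKM over all libraries. WT ADX+DEX read 0.675, 0.736, 0.696 and 0.251 FPKM at ZT0 and 0.426, 0.498, 0.583 and 0.613 FPKM at ZT12. WT ADX read 1.33, 1.53 and 1.55 FPKM at ZT0 and 1.34, 1.13, 1.35 and 1.55 FPKM at ZT12. No library of one condition overlapped the other, and Tnfaip3 was 2.66-fold lower under dexamethasone at ZT0 (-1.41 ± 0.25, adjusted p = 4.52e-06) and 2.51-fold lower at ZT12 (-1.33 ± 0.23, adjusted p = 3.96e-06), where 32.5% and 31.7% of all genes were called as lower.

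Adrenaline did not bring Tnfaip3 to the dexamethasone level. WT ADX+ADR read 1.75, 0.969, 1.24 and 1.19 FPKM at ZT0 and 0.964, 0.897, 0.663 and 0.946 FPKM at ZT12. All of these were above the dexamethasone libraries of the same time. Dexamethasone minus adrenaline was -1.19 ± 0.23 at ZT0 (adjusted p = 3.97e-05) and -0.70 ± 0.23 at ZT12 (adjusted p = 0.0126), where 48.6% and 42.6% of genes were called, and the ZT12 call was lost without WT ADX+DEX replicate 5 (-0.60). Against WT sham, dexamethasone was lower by -1.17 ± 0.23 at ZT0 (adjusted p = 3.34e-05, 62.6% called) and by -0.63 ± 0.23 at ZT12 (adjusted p = 0.0195, 52.7% called). The ZT12 call was lost without WT sham replicate 6 or 8, without WT ADX+DEX replicate 5, and without the libraries that stand apart (-0.54, adjusted p = 0.0968). Adrenaline minus WT ADX was -0.63 ± 0.23 at ZT12 (adjusted p = 0.0197, 53% called), and this call was lost without WT ADX replicate 7 or WT ADX+ADR replicate 7 and with age as a covariate (-0.48, adjusted p = 0.0783).

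By time of day, Tnfaip3 means ran against those of Nfkbia and Tsc22d3 in intact muscle, although no time difference passed. WT sham read 1.31, 1.19, 1.51 and 0.995 FPKM at ZT0 and 0.558, 0.983, 0.819 and 0.999 FPKM at ZT12, which overlapped by 1 library. The log2 difference was -0.59 ± 0.23 (adjusted p = 0.0557, 23.5% of genes called). In separate fits it passed on log2(FPKM + 1) (adjusted p = 0.0282), with age as a covariate on the deposited scale (adjusted p = 0.0348), and without WT sham replicate 4 (-0.70) or replicate 8 (-0.69). RE-RE sham read 1.61, 1.37, 1.09 and 1.53 FPKM at ZT0 and 1.0, 0.88, 0.955 and 0.862 FPKM at ZT12, which did not overlap, with a difference of -0.58 ± 0.23 (adjusted p = 0.102, and 0.0354 on log2(FPKM + 1)). RE-RE ADX had nearly the same mean at both times, 1.2 ± 0.0758 and 1.2 ± 0.308 FPKM (SD, n = 4), with a difference of -0.04 and a 95% interval from -0.51 to 0.42. At ZT12, WT ADX was above WT sham by 0.70 ± 0.23 (adjusted p = 0.0205, 26.9% called). That call was lost with age as a covariate (0.37, adjusted p = 0.376), the WT ADX mice being 13 to 17 and the WT sham mice 10 to 12 weeks old at this time, and also without WT sham replicate 5 or WT ADX replicate 7.

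Endothelial genes were low in the same condition as Tnfaip3, dexamethasone. A20 is made in many cell types, endothelium included. The summed level of 10 endothelial markers was 87.6 to 108 FPKM in WT ADX+DEX at ZT12 and 94.4 to 99.6 FPKM at ZT0, against 225 to 284 FPKM in WT ADX and 136 to 185 FPKM in WT sham. In WT ADX+ADR the sum was 153 to 167 FPKM at ZT0 and higher, at 169 to 255 FPKM, at ZT12, where Tnfaip3 means were lower than at ZT0. In that sum Cldn5 alone read 17.9 to 22.1 FPKM at ZT0 and 69.0 to 97.4 FPKM at ZT12. As a set, 0 of the 10 markers were called higher and 1 lower at ZT12 than at ZT0 under adrenaline. Their median log2 difference was -0.06, against 0.02 over all genes, with 12.7% of genes called. All 8 dexamethasone libraries were below the other 39 for this sum, while their Tnfaip3 levels, 0.251 to 0.736 FPKM, overlapped the lowest WT sham and WT ADX+ADR libraries at ZT12. In dexamethasone minus adrenaline, 9 of 10 endothelial markers were lower at ZT0 and 7 of 10 at ZT12, among them Cdh5, the VE-cadherin gene, at -0.78 ± 0.11 at ZT0, and Egfl7 at -2.01 ± 0.12 at ZT12. None of the 10 was higher at either time. Over all 12000 tested genes, 2824 were lower at ZT0 and 2564 at ZT12, with 48.6% and 42.6% called in either direction. The part of the endothelial markers in the Tnfaip3 result was not tested.

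Zfp36, the tristetraprolin gene, differed between conditions, and no time difference passed. Its levels were low in WT sham and WT ADX, and both hormone conditions were above WT ADX. Over the 15 libraries of WT sham and WT ADX it ranged from 0 to 7.54 FPKM with a median of 1.63, and over the other 32 from 2.13 to 33.8 FPKM with a median of 11.1. Within 1 group, WT sham read 3.19, 7.32, 0 and 0.82 FPKM at ZT0 and 7.54, 0, 1.63 and 6.64 FPKM at ZT12. WT ADX read 3.08, 0.869 and 0 FPKM at ZT0 and 4.67, 1.37, 5.36 and 0 FPKM at ZT12. Levels within these groups spread from nothing to several FPKM, and 4 libraries were listed at 0, so their differences on the deposited scale carry a standard error of 1.68 to 1.82.

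Of the hormone groups, dexamethasone in the evening stood apart for Zfp36. WT ADX+DEX read 14.5, 14.1, 14.5 and 11.6 FPKM at ZT0 and 28.1, 30.6, 33.8 and 31.0 FPKM at ZT12, while WT ADX+ADR read 10.8, 16.0, 13.1 and 10.8 FPKM at ZT0 and 9.43, 10.9, 14.5 and 11.7 FPKM at ZT12. The 4 evening dexamethasone libraries were above every other library of the study for this gene. In the model of all 12 groups, whose spread includes the libraries at 0, the dexamethasone time difference of 1.18 ± 1.68 did not pass (adjusted p = 0.681, 27.8% of genes called). With only these 2 groups in the model it was 1.18 ± 0.09 (adjusted p = 0.000134). Dexamethasone minus adrenaline at ZT12 likewise did not pass at 1.42 ± 1.68 (adjusted p = 0.531, 42.6% called), but it passed on log2(FPKM + 1) at 1.35 ± 0.54 (adjusted p = 0.0402) and with only the 2 groups in the model (adjusted p = 0.00011). At ZT0 the same difference was 0.12 (95% interval -3.29 to 3.54), and on log2(FPKM + 1) it was 0.11 ± 0.54.

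Against WT ADX, Zfp36 was higher with either hormone at both times. On the deposited scale dexamethasone minus WT ADX was 5.50 ± 1.82 at ZT0 (adjusted p = 0.00768) and 5.33 ± 1.68 at ZT12 (adjusted p = 0.00571), and on log2(FPKM + 1), where a library at 0 weighs less, 2.89 ± 0.58 and 3.39 ± 0.54. Adrenaline minus WT ADX was 5.38 ± 1.82 at ZT0 (adjusted p = 0.0133) and 3.91 ± 1.68 at ZT12 (adjusted p = 0.0492), and 2.78 ± 0.58 and 2.04 ± 0.54 on log2(FPKM + 1). Between 51.1% and 68.9% of all genes were called in these 4 contrasts. The ZT0 calls were lost without WT ADX replicate 3 (3.05 for dexamethasone and 2.92 for adrenaline), and the ZT12 dexamethasone call without WT ADX replicate 7 (3.24), each of which is a library at 0. The ZT12 adrenaline call was lost without any 1 of 6 libraries, WT ADX replicates 5 and 7 and all 4 WT ADX+ADR replicates, with values from 1.82 to 4.19, and also with no filter on low values, in a model of the 2 groups alone and with age as a covariate (adjusted p from 0.0502 to 0.112). Dexamethasone minus WT sham was 4.36 ± 1.68 at ZT0 (adjusted p = 0.024) and 5.02 ± 1.68 at ZT12 (adjusted p = 0.012), where 62.6% and 52.7% of genes were called, and 2.37 and 3.14 on log2(FPKM + 1). Those calls were lost without WT sham replicate 3 (2.34) and replicate 6 (2.83) respectively, again libraries at 0, and both in a model of the 2 groups alone (adjusted p = 0.0697 and 0.0597). The ZT0 call was also lost with age as a covariate (adjusted p = 0.0592) and without the libraries that stand apart (4.47, adjusted p = 0.0503).

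In RE-RE mice, no Zfp36 contrast passed on the deposited scale. RE-RE sham read 8.57, 2.13, 8.23 and 10.2 FPKM at ZT0 and 8.96, 20.4, 11.2 and 11.3 FPKM at ZT12. RE-RE ADX read 8.32, 9.96, 11.0 and 7.66 FPKM at ZT0 and 11.5, 9.45, 10.1 and 9.21 FPKM at ZT12. The 2 RE-RE conditions overlapped at both times, with RE-RE ADX minus RE-RE sham at 0.55 ± 1.68 at ZT0 and -0.30 ± 1.68 at ZT12, where 5.45% and 5.32% of genes were called. RE-RE sham minus WT sham was 3.70 ± 1.68 at ZT12 (adjusted p = 0.12, 19.3% of genes called), which passed on log2(FPKM + 1) at 1.89 ± 0.54 (adjusted p = 0.0102). At ZT0 it was 3.24 ± 1.68 (adjusted p = 0.16, 24.1% called).

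Dusp1, the gene of a phosphatase that switches off MAP kinases and another glucocorticoid target, split the libraries in the same way. It was 0 to 21.5 FPKM in WT sham and WT ADX (median 6.65) and 21.0 to 94.0 FPKM in the other 32 libraries (median 40.3). The 4 libraries listing Zfp36 at 0 were the same 4 that listed Dusp1 at 0. Zfp36 and Dusp1 are both known to rise within minutes of stimulation or handling, as do the immediate early genes. The summed level of 12 immediate early genes was 17.6 to 112 FPKM in WT sham and WT ADX, 69.3 to 106 FPKM in the RE-RE groups, 111 to 164 FPKM in WT ADX+DEX, and 131 to 512 FPKM in WT ADX+ADR. Zfp36 was highest in the evening dexamethasone group and the immediate early sum in the evening adrenaline group, at 366 to 512 FPKM. The part of this sum in the Zfp36 differences was not tested. On GRCm38, Zfp36 (ENSMUSG00000044786, chr7:28376784-28380253, minus strand) is also overlapped by the antisense gene Gm44710 (chr7:28378980-28392514, plus strand), which was not analysed here, and without a recorded strand setting reads of the 2 cannot be told apart.

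**Figure D3:**
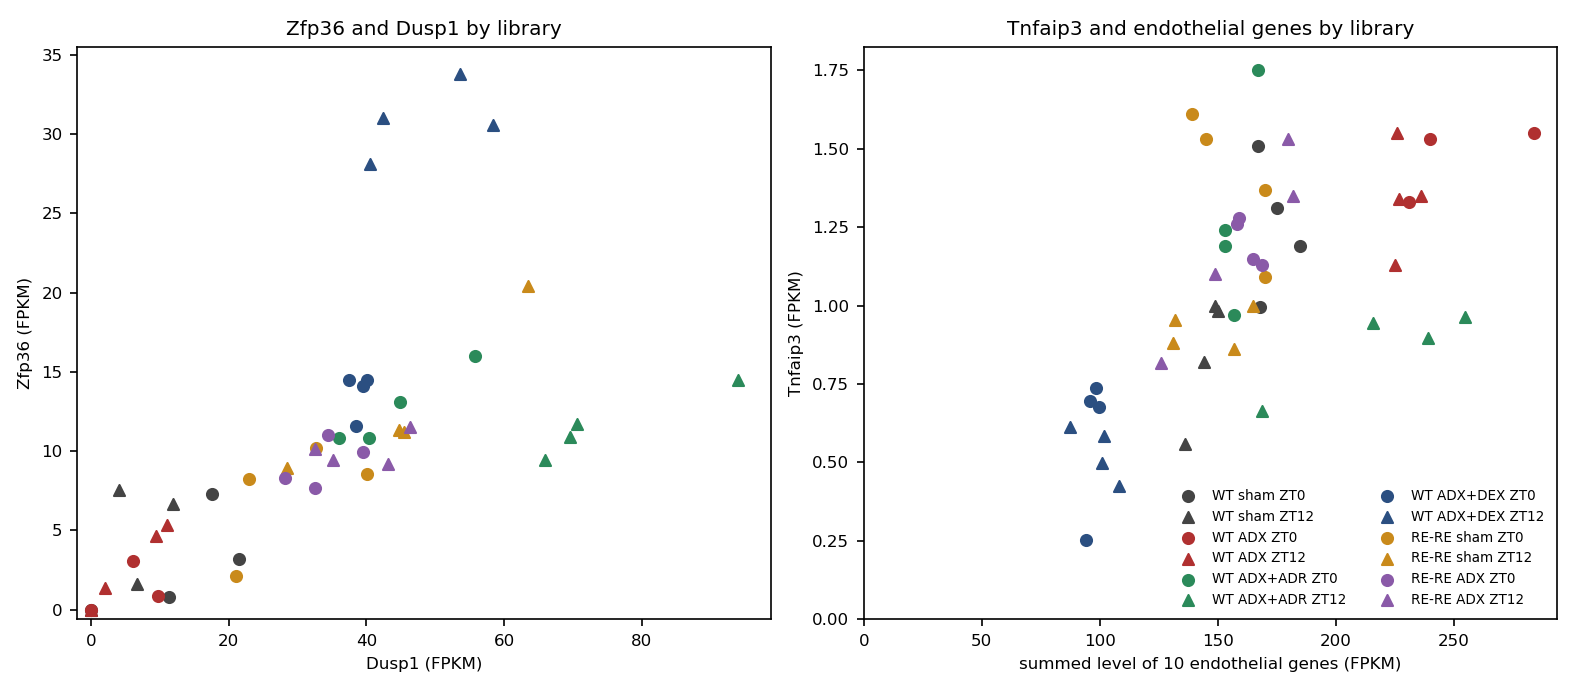
Each point is 1 library, coloured by condition, with circles for ZT0 and triangles for ZT12. On the left, Zfp36 is plotted against Dusp1, both in FPKM, with WT sham and WT ADX near the origin and the 4 evening dexamethasone libraries highest for Zfp36. On the right, Tnfaip3 is plotted against the summed level of 10 endothelial genes, and the 8 WT ADX+DEX libraries have the lowest sums.

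Ordered by group mean, neighbouring groups nearly always overlapped. For Nfkbia the evening dexamethasone group stood clear of RE-RE sham ZT12 at 27.1 ± 3.87 FPKM and WT sham ZT12 at 25.0 ± 7.28 FPKM, and WT ADX+ADR ZT0 was last at 9.1 ± 1.7 FPKM (SD, n = 4 each). The other gap without overlap in that order was between WT ADX+ADR ZT12 at 13.9 ± 0.28 FPKM and WT sham ZT0 at 10.6 ± 1.51 FPKM. For Tsc22d3 all neighbours overlapped, from RE-RE sham ZT12 down to WT ADX ZT0 at 27.6 ± 3.66 FPKM (n = 3). For Zfp36 only the first group, evening dexamethasone at 30.9 ± 2.34 FPKM, was clear of the next, its own ZT0 group at 13.7 ± 1.39 FPKM. For Tnfaip3 all neighbours overlapped, from WT ADX ZT0 at 1.47 ± 0.121 FPKM (n = 3) to WT ADX+DEX ZT12 at 0.53 ± 0.0849 FPKM.

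As a description over the 12 group means on log2(FPKM + 1), which share libraries and normalization, Pearson's r was 0.69 between Tsc22d3 and Nfkbia, 0.65 between Tsc22d3 and Zfp36 and 0.53 between Nfkbia and Zfp36. Tnfaip3 had negative values with all of them, -0.62 with Tsc22d3, -0.71 with Nfkbia and -0.64 with Zfp36. Per contrast, 2 of 4 members passed for ZT12 minus ZT0 in WT sham (23.5% of all genes), WT ADX+ADR (12.7%), WT ADX+DEX (27.8%) and RE-RE sham (10.8%), and 0 of 4 in WT ADX (11%) and RE-RE ADX (0.775%). At ZT12, 3 of 4 passed for WT ADX minus WT sham (26.9%), 4 of 4 for dexamethasone (66.3%) and for adrenaline minus WT ADX (53%), and 2 of 4 for dexamethasone minus adrenaline (42.6%). At ZT0, 0 of 4 passed for WT ADX minus WT sham (32%), 3 of 4 for dexamethasone (68.9%) and for adrenaline minus WT ADX (51.1%), and 2 of 4 for dexamethasone minus adrenaline (48.6%). Since so many genes were called in the hormone contrasts, a count of 2 to 4 members there is not a result about these genes as a set.

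**Figure D4:**
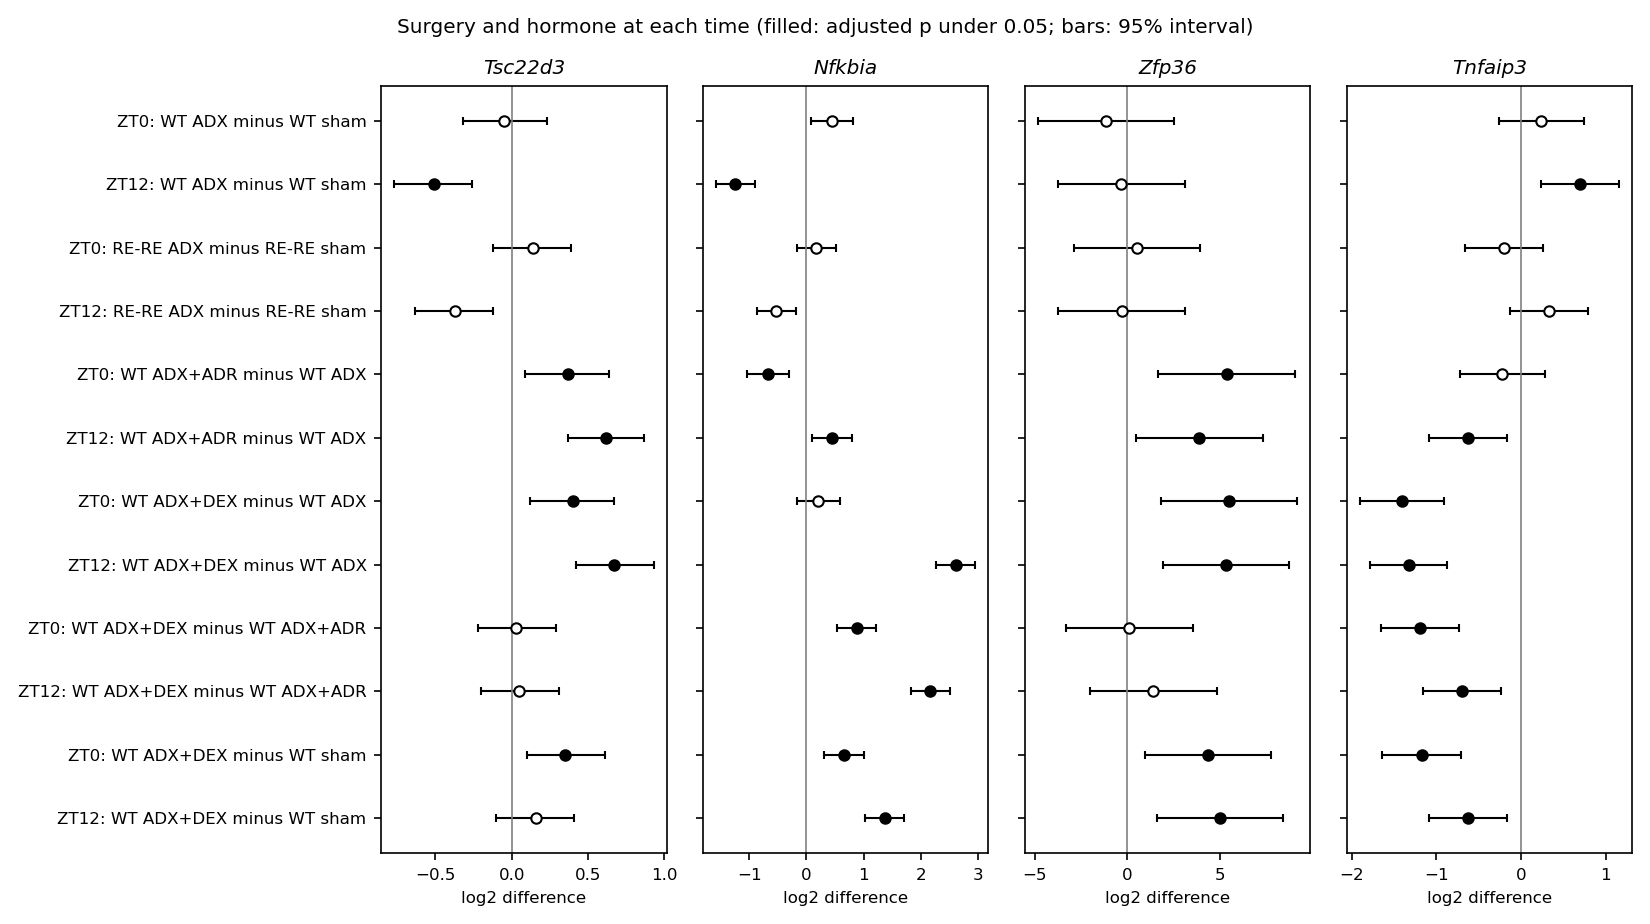
Log2 difference (x axis, 95% interval) of each gene for surgery and hormone contrasts at ZT0 and ZT12 (rows), where filled points passed an adjusted p of 0.05. Nfkbia at ZT12 moves from -1.24 for WT ADX minus WT sham to 2.61 for dexamethasone minus WT ADX, while the Tnfaip3 points for dexamethasone all lie below 0 and the Tsc22d3 points for dexamethasone minus adrenaline lie at 0.03 and 0.05.

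Among 9800 genes compared for likeness of their 12 group means, those most like Nfkbia included Arrdc3 (r = 0.936), Ddit4 (0.928), Depp1 (0.905) and Itpripl1 (0.883). These 4 had their highest group mean in WT ADX+DEX at ZT12, 21.3 FPKM for the arrestin gene Arrdc3 and 64.3 FPKM for Ddit4, an inhibitor of mTOR signalling. Ddit4 was listed at 0 in 10 libraries and Depp1 in 4. Those most like Tsc22d3 were Cdc14b (0.936), Snrk (0.932), Usp2 (0.928), Stard3 (0.925) and Art1 (0.915), where the deubiquitinase gene Usp2 ran from 16.5 FPKM in WT ADX ZT0 to 66.7 FPKM in WT sham ZT12. Those most like Zfp36 were Fbxw4 (0.974), Edf1 (0.972), Cdc42bpg (0.968), Anapc15 (0.966) and Stc2 (0.965), with Fbxw4 ranging only from 7.46 to 11.7 FPKM. Those most like Tnfaip3 were Fam102a (0.969), Tbl1x (0.965), Mmp15 (0.961), Adam19 (0.957) and Hspg2 (0.957), all lowest in WT ADX+DEX at ZT12. The basement membrane gene Hspg2, which encodes perlecan, ran from 29.9 FPKM in WT ADX ZT0 to 13.9 FPKM there. Stc2 was listed at 0 in 12 libraries and Adam19 in 3. The r values named here are the highest of 9800 values over only 12 points and are given as a description.

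Other glucocorticoid receptor targets, a list of 23 genes that were all tested, had more members higher than lower in the evening in WT sham and only lower calls after adrenalectomy at ZT12. In WT sham, 14 were higher and 2 lower at ZT12, where 23.5% of all genes were called and 14% as higher. The list had a median log2 difference of 1.28 against 0.01 over all tested genes. Among the higher targets Glul, the glutamine synthetase gene, went from 16.2 to 27.6 FPKM at ZT0 to 89.8 to 129.0 FPKM at ZT12 (2.31 ± 0.20, adjusted p = 7.93e-11), and the transcription factor gene Cebpb rose by 2.16 ± 0.26 (adjusted p = 1.29e-07). In WT ADX against WT sham at ZT12, 14 were lower and none higher (median -1.42, all genes -0.02), where 26.9% of all genes were called. Among the lower targets was the transcription factor gene Klf15, at 7.29 to 7.37 against 17.9 to 23.8 FPKM (-1.44 ± 0.14, adjusted p = 3.27e-09). In RE-RE sham, 11 were higher at ZT12 and none lower (median 0.71, all genes 0.01), where 10.8% of all genes were called.

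Under dexamethasone more of the list was lower than higher in the evening. In WT ADX+DEX, 2 of 23 targets were higher at ZT12 and 7 lower (median -0.34, all genes -0.00), where 27.8% of all genes were called. Foxo1, a transcription factor gene of muscle atrophy, went from 7.31 to 15.6 FPKM at ZT0 to 4.71 to 4.76 FPKM at ZT12 (-1.14 ± 0.17, adjusted p = 1.92e-06), and Fkbp5, which encodes a chaperone of the receptor, read 80.6, 91.0, 97.0 and 98.9 FPKM at ZT0 and 37.2, 36.7, 35.4 and 37.4 FPKM at ZT12. Over the same times, Nfkbia rose 3.76-fold and Tsc22d3 1.54-fold. Fkbp5 had a listed value of 0 across the 7 WT ADX libraries and in 5 of the 8 WT sham ones, among them all 4 at ZT0. It read 8.94 to 12.3 FPKM in WT ADX+ADR, 1.01 to 6.93 FPKM in RE-RE sham and 1.5 to 10.4 FPKM in RE-RE ADX. Dexamethasone minus adrenaline gave 17 of 23 targets higher at ZT0 (median 1.08, all genes 0.03) and 9 at ZT12 (median 0.51, all genes -0.00), with none lower. Of all genes, 48.6% were called in either direction at ZT0 and 42.6% at ZT12. Klf9 was higher at both, by 0.83 ± 0.09 and 0.58 ± 0.09 (adjusted p = 2.51e-09 and 3.36e-06).

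Genes that NF-κB induces were lower under dexamethasone than under adrenaline, the direction of Tnfaip3 and not of Nfkbia. Of 28 listed genes 16 were tested, and 10 were lower with 2 higher at ZT0 (median -0.51, all genes 0.03) and 10 lower with 1 higher at ZT12 (median -0.87, all genes -0.00). In these contrasts 48.6% and 42.6% of all genes were called in either direction. At ZT12, Nfkb2, an NF-κB subunit, read 2.28 to 3.12 FPKM under dexamethasone and 4.17 to 6.13 FPKM under adrenaline (-0.91 ± 0.11, adjusted p = 2.29e-08). Another subunit, Rel, read 0.769 to 0.886 against 1.35 to 1.64 FPKM (-0.93 ± 0.14, adjusted p = 9.43e-07). Cd83, a surface marker of activated immune cells, was at most 0.00778 FPKM under dexamethasone, with 3 of 4 libraries at 0, against 0.834 to 1.64 FPKM, and the co-activator gene Bcl3 at most 0.144 against 0.488 to 0.717 FPKM. Cd83 averaged only 0.428 FPKM over all libraries, and the evening adrenaline group was among those that took it past the filter on low values. At ZT0, Relb read 0.476 to 0.9 against 1.93 to 2.13 FPKM (-1.78 ± 0.18, adjusted p = 3.45e-10) and Vcam1, an adhesion molecule of endothelium, 0.0579 to 0.153 against 0.489 to 0.6 FPKM (-2.30 ± 0.22, adjusted p = 6.68e-11).

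Markers of macrophages, endothelium and fibroblasts were lower beside those NF-κB genes. In dexamethasone minus adrenaline at ZT12, 6 of 9 tested macrophage markers were lower and none higher (median -1.05), and at ZT0 4 of 9 (median -0.77), with 10 of the 12 listed in the table. Of 9 fibroblast markers, 7 were lower at ZT0 (median -1.21) and 5 at ZT12 (median -0.96), and none was higher. Their summed level was 340 to 382 FPKM under dexamethasone and 407 to 725 FPKM under adrenaline at ZT0, and at ZT12 the sums overlapped, at 286 to 376 and 239 to 414 FPKM. Over all genes 48.6% were called at ZT0 and 42.6% at ZT12, in either direction, and the medians were 0.03 and -0.00. Csf1r, the receptor that defines the lineage, read 0.226 to 0.745 FPKM under dexamethasone and 0.665 to 1.71 FPKM under adrenaline at ZT12. No macrophage sum was at 0. These sums were 19.6 to 25.9 and 27.0 to 50.8 FPKM at ZT12, and they overlapped at ZT0, at 31.5 to 53.9 and 39.3 to 67.4 FPKM. The lower counts of endothelial markers are given above. Their part in the NF-κB list was not tested. In WT ADX minus WT sham, 5 of the 16 NF-κB genes were higher and 1 lower at ZT0 (median 0.35, 32% of all genes called). In the same contrast 2 were higher and 1 lower at ZT12 (median 0.32, 26.9% called), and in WT sham 1 was higher and 2 lower in the evening. Of the 11 listed lymphocyte markers none was in the table, and of 9 neutrophil markers only 1.

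Lists of partners of the 4 members had medians near that of all genes in dexamethasone minus adrenaline at ZT12, where 42.6% of all genes were called. Of the NF-κB core pathway, 3 of 16 tested genes were higher and 4 lower in dexamethasone minus adrenaline at ZT12, with a median of -0.02. Tab2, an adaptor of the TAK1 kinase, was higher by 0.35 ± 0.06, and Myd88, an adaptor of Toll-like receptors, was lower by -0.53 ± 0.11. Tradd, an adaptor of the TNF receptor, was lower by -0.82 ± 0.20 (adjusted p = 0.00127), and at ZT0 by -0.74 ± 0.20. Of 11 A20 partners and deubiquitinases, 5 were higher and none lower (median 0.04), with Itch, a ligase that acts with A20, up by 0.27 ± 0.06 (adjusted p = 0.000296) and Tax1bp1, an A20 adaptor, by 0.14 ± 0.03 (adjusted p = 0.00045), while Tnfaip3 itself was lower. Of 10 proteins of AU-rich element decay, 4 were higher and 2 lower (median 0.01), with the deadenylase scaffold gene Cnot1 up by 0.32 ± 0.04 and the Zfp36 relative Zfp36l2 down, at 2.36 to 2.86 against 2.99 to 3.89 FPKM (-0.43 ± 0.10, adjusted p = 0.000617). Of the TSC22 family, Tsc22d1 was higher by 0.31 ± 0.07 (adjusted p = 0.000199) and Tsc22d4 lower by -0.49 ± 0.11 (adjusted p = 0.000399), where Tsc22d3 differed by 0.05. At ZT0 the differences were larger for Tsc22d4, at -1.03 ± 0.11 (adjusted p = 6.08e-10), and for Tsc22d1, at 0.51 ± 0.07. The remaining gene of the family list, Tsc22d2, did not pass at ZT12 (0.08 ± 0.07, adjusted p = 0.371) and was higher at ZT0 by 0.41 ± 0.07 (adjusted p = 4.03e-06). Also at ZT0, the core pathway had 2 of 16 higher and 3 lower, the A20 partners 3 of 11 higher and 2 lower, and the decay proteins 5 of 10 higher and 2 lower, where 48.6% of all genes were called.

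Other anti-inflammatory glucocorticoid targets moved in both directions. Of 12 listed genes 7 were tested. In dexamethasone minus WT ADX, 4 were higher and 3 lower at ZT0 (median 0.56, 68.9% of all genes called), and 4 were higher and 2 lower at ZT12 (median 0.40, 66.3% called). The summed level of the 8 listed genes in the table was 58.0 to 75.3 FPKM in WT ADX+DEX, 87.5 to 117 FPKM in WT ADX+ADR and 17.7 to 27.9 FPKM in WT ADX, all at ZT12. Most of the sum in the hormone groups was Dusp1, which is also on the list of glucocorticoid receptor targets. Dusp1 alone read 40.5 to 58.4, 66.0 to 94.0 and 0 to 11.0 FPKM in these groups. In dexamethasone minus adrenaline, 3 of the 7 tested genes were lower and none higher at ZT0 (median -0.17, 48.6% called), and at ZT12, 1 was higher and 3 were lower (median -0.62, 42.6% called). The named genes are given at ZT12. Irak3, an inhibitor of Toll-like receptor signalling, was higher by 0.43 ± 0.18 (adjusted p = 0.049). Socs3, an inhibitor of cytokine receptors, was at most 0.281 FPKM against 1.04 to 1.46 FPKM, with 2 libraries at 0. Anxa1, which encodes annexin A1, was lower by -0.70 ± 0.25 (adjusted p = 0.0228), and the macrophage mannose receptor gene Mrc1 by -1.24 ± 0.26 (adjusted p = 0.000166). Mrc1 is also on the macrophage list.

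**Figure D5:**
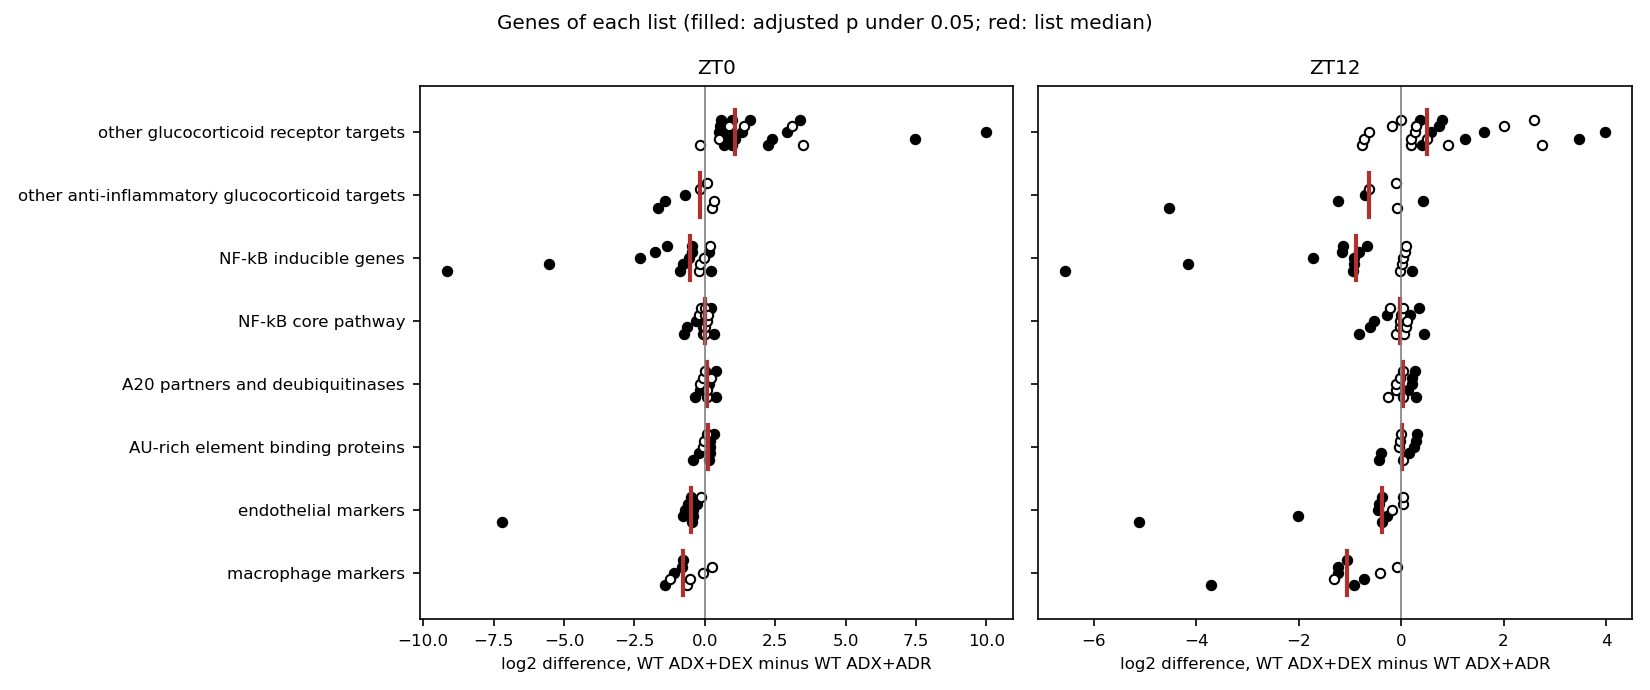
Log2 difference of dexamethasone minus adrenaline (x axis) for each tested gene of 8 lists (rows) at ZT0 and ZT12, with the list median in red and filled points past an adjusted p of 0.05. Glucocorticoid receptor targets have medians of 1.08 and 0.51, NF-κB inducible genes -0.51 and -0.87, and macrophage markers -0.77 and -1.05.

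On GRCm38, the other members lie at chrX:140539528-140600659 (Tsc22d3, ENSMUSG00000031431), chr12:55489410-55492647 (Nfkbia, ENSMUSG00000021025) and chr10:19000910-19015657 (Tnfaip3, ENSMUSG00000019850), all on the minus strand and all protein coding. Values are per gene, so transcripts from the 3 Tsc22d3 start sites were not told apart.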

How the data were processed

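RNA of 47 muscles, 1 library each, was sequenced by the submitters as 60 bp single-end reads, per the labels' protocols. The submitters' processing notes name the build GRCm38, the aligner HISAT2 2.1.0, the counter featureCounts 1.6.2 and edgeR 3.30.0, beside Trim Galore 0.5.0 for trimming and FastQC 0.11.8 for quality, with no strand setting. The authors deposited log2 FPKM values for 13500 genes, and a smallest value of -6.64 shows an offset of 0.01 FPKM. A gene at that value is called listed at 0. Of the gene identifiers, 13441 had a symbol. FPKM divides by length and library size, and the table holds no counts, so the depth of each library is unknown.

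Genes with at least 1 FPKM in at least 3 libraries (12000) were tested on the deposited scale with limma 3.58.1 in R 4.3.3. One model of 12 group means was used, with a trended prior, 28 contrasts and Benjamini-Hochberg adjustment over all tested genes within each contrast, at an adjusted p of 0.05. Every adjusted p in the text is from limma, each ± on a log2 difference is a standard error, and the 4 members gave 112 tests. The fit was tested on simulated data. Python 3.11.15 was used for tables and plots. The alternatives tried were equal library medians, age as a covariate, a replicate block, a model of the compared groups alone, log2(FPKM + 1), all genes unfiltered, and each library left out. Leaving out the 7 libraries that share few exact values was added after seeing the data. Replicate numbers were checked for pairing and did not pair the samples.

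The 4 members and the 18 gene lists were chosen with earlier results of these data known. The text names the members, for each member the 5 genes with the most similar group means, and up to 4 genes per list with the smallest adjusted p. One gene that this rule names is not reported here. Dusp1, Fkbp5, Nnt and Nr3c1 were named outside that rule, after their values were seen. Nothing labels the mice of a group as separate cohorts or cages, so p-values measure the spread between these libraries.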

Additional observations from a re-analysis of the deposited data

Results flagged for a closer look

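In 44 sets of 4 libraries (the 4 genes in 11 groups), 3 had 1 library far from the others by Dixon's test at its 95% critical value, and chance gives about 1 in 20. Zfp36 in WT ADX+DEX ZT0 replicate 4 read 11.6 FPKM below 3 libraries between 14.1 and 14.5 FPKM. Tnfaip3 in the same library read 0.251 FPKM below 3 between 0.675 and 0.736 FPKM. That mouse was 11 weeks old and the others of its group 14 weeks, and the part of age in these values was not tested. Zfp36 in RE-RE sham ZT0 replicate 2, which is also one of the 7 libraries that share few exact values with their group, read 2.13 FPKM below 3 between 8.23 and 10.2 FPKM.

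The time difference of Nfkbia differed between conditions in 5 tested pairs, as log2 differences of the ZT12 minus ZT0 values. It was -1.68 for WT ADX minus WT sham, 2.40 for WT ADX+DEX minus WT ADX, 1.12 for WT ADX+ADR minus WT ADX, 1.28 for WT ADX+DEX minus WT ADX+ADR and 0.71 for WT ADX+DEX minus WT sham. These pairs share libraries and are not independent of each other.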

How the results depend on the processing

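The depth of each library is unknown, and groups of 3 or 4 libraries limit precision, most of all for Zfp36 with 4 libraries listed at 0. Over the 4 genes, 667 of 712 alternative fits kept the direction of called results and the side of the threshold, 17 came past it and 28 fell short. Of 1124 fits with 1 library left out, 1079 kept it, 11 came past and 34 fell short. No called value changed direction, and the cause of the changes was not tested.

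The number of the 4 genes called changed by over 1.5 times as follows, and smaller changes, each by 1 gene, are not listed. On log2(FPKM + 1) it went from 0 to 1 for RE-RE ADX minus RE-RE sham and for RE-RE sham minus WT sham, both at ZT12. For that first contrast it was 2 with equal medians, 1 with only the compared groups and 1 with age. With only the compared groups it was 1 for WT ADX minus WT sham at ZT0 (0 as reported), 2 for the time difference of WT ADX+DEX minus WT ADX+ADR (1) and 0 for that of WT ADX+DEX minus WT sham (1). With age it was 2 for WT ADX+DEX minus WT sham at ZT0 (4) and 2 for WT ADX+ADR minus WT ADX at ZT12 (4). Without the 7 libraries it was 1 for RE-RE sham minus WT sham at ZT0 (0).

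With a replicate block, the numbers being only numbers (correlations of deviations from -0.137 to 0.219), it was 1 for WT ADX+DEX minus WT ADX and for WT ADX+ADR minus WT ADX at ZT0 (3 each), 2 for WT ADX+DEX minus WT sham at ZT0 (4), 0 for WT ADX minus WT sham at ZT12 (3), 2 for WT ADX+ADR minus WT ADX at ZT12 (4), and for time differences 0 for WT ADX minus WT sham (1), 2 for WT ADX+DEX minus WT ADX+ADR (1) and 0 for WT ADX+DEX minus WT sham (1). Nfkbia in WT ADX minus WT sham was -1.26 at ZT12 under the block (adjusted p = 0.0803), and -1.66 for the time difference (adjusted p = 0.205). Times within a condition share no replicate numbers, so no block could be fitted there.

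With 1 library left out, the number of genes called ranged from 0 to 1 for the WT ADX time difference, for WT ADX minus WT sham at ZT0, for RE-RE ADX minus RE-RE sham and RE-RE sham minus WT sham at ZT12, and for the time differences of WT ADX+DEX and of WT ADX+ADR minus WT sham. It ranged from 1 to 3 for WT ADX+ADR minus WT ADX at ZT0, 2 to 4 for WT ADX+DEX minus WT sham at ZT0, 0 to 2 for RE-RE sham minus WT sham at ZT0, 1 to 4 for WT ADX+ADR minus WT ADX at ZT12, 1 to 2 for WT ADX+DEX minus WT ADX+ADR at ZT12 and 1 to 3 for WT ADX+DEX minus WT sham at ZT12.

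Counts over all genes changed by over 1.5 times as follows. With 1 library left out, they ranged from 547 to 1610 for the WT ADX time difference (1322 as reported), 24 to 123 for that of RE-RE ADX (93), 168 to 1022 and 256 to 765 for RE-RE ADX minus RE-RE sham at ZT0 and ZT12 (654 and 638), and for time differences 118 to 233 (WT ADX minus WT sham, 185), 8 to 19 (RE-RE ADX minus RE-RE sham, 8), 340 to 626 (WT ADX+ADR minus WT ADX, 554) and 25 to 159 (RE-RE sham minus WT sham, 41). In a model of the compared groups alone they went from 1322 to 44 (WT ADX time), 1291 to 474 (RE-RE sham time), 93 to 1 (RE-RE ADX time), 3838 to 2130 (WT ADX minus WT sham, ZT0), 654 to 4 and 638 to 271 (RE-RE ADX minus RE-RE sham, ZT0 and ZT12), 2887 to 1313 (RE-RE sham minus WT sham, ZT0), and for time differences 185 to 70 (WT ADX minus WT sham), 8 to 2 (RE-RE ADX minus RE-RE sham), 2068 to 1347 (WT ADX+DEX minus WT ADX) and 554 to 366 (WT ADX+ADR minus WT ADX). Under the block these contrasts at ZT0 gave 7, 0 and 1060, and RE-RE ADX minus RE-RE sham at ZT12 gave 18. The time differences just named gave 4, 0, 262 and 62 under it. The block also took WT ADX minus WT sham at ZT12 from 3232 to 280, WT ADX+ADR minus WT ADX from 6134 to 2682 at ZT0 and 6357 to 1719 at ZT12, RE-RE sham minus WT sham at ZT12 from 2318 to 1041, and the time differences against WT sham from 2268 to 1382 (WT ADX+DEX), 952 to 453 (WT ADX+ADR) and 41 to 17 (RE-RE sham). With age, 93 became 53 (RE-RE ADX time) and 3232 became 1828 (WT ADX minus WT sham, ZT12). Without the 7 libraries the counts were 1295 for 2818 as reported (WT sham time), 744 for 1291 (RE-RE sham time), 0 for 93 (RE-RE ADX time), 70 for 654 and 76 for 638 (RE-RE ADX minus RE-RE sham, ZT0 and ZT12), 1334 for 2887 and 1318 for 2318 (RE-RE sham minus WT sham), and for time differences 96 for 185 (WT ADX minus WT sham), 25 for 8 (RE-RE ADX minus RE-RE sham) and 404 for 952 (WT ADX+ADR minus WT sham).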
